A study of Mus musculus with 8 samples.

Results

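Interferon response genes are the genes that cells switch on when interferon, the alarm signal of viral infection, binds its receptors. The 38 genes described here were taken by symbol from a fixed list, out of 22911 gene symbols that the array's probes could be named by. A probe was found for 37 of them, 54 probes in all; Mx2 had no probe named by its symbol. The test took in 36 genes, those with a probe that was well above background throughout at least 1 group; the Oas3 probe was well above background on 1 array and was not tested.

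The RNA came from whole liver of male and female mice aged 10 to 11 weeks, either wild type or with a liver-specific deficiency of Bcl-6. Bcl-6 is a transcriptional repressor, and the study asked how it affects the difference between male and female liver. There were 4 groups of 2 samples: wild-type males, Bcl-6-deficient males, wild-type females and Bcl-6-deficient females. Each sample was hybridised to its own one-colour oligonucleotide array. How the deletion was driven, and so which liver cells carried it, is not stated by the labels. Nor do they say that the replicates were separate animals, so each p-value rests on a spread that may be technical.

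Type I interferons signal through a receptor made of IFNAR1 and IFNAR2, the kinases JAK1 and TYK2, and a complex that includes STAT2 and IRF9 and binds the interferon-stimulated response element in target promoters. Interferon gamma signals through IFNGR1 and IFNGR2 to the gamma-activated site in target promoters, and IRF1 carries that signal on to genes of antigen presentation. In liver the targets are made by hepatocytes and by resident immune cells, and several are sensors or transcription factors that amplify the response.

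All arrays lay on 1 slide and were read in 1 scan, with the females in 1 row and the males in the other, so slide row and sex cannot be told apart. Replicate 1 of every group lay in column 1 or 2 and replicate 2 in column 3 or 4. Differences between replicate 1 and replicate 2 thus cannot be told apart from the side of the slide. Between 33677 and 36459 of 59305 spots per array were well above background and 0 were saturated. Both ends of this range were wild-type males, the fewest spots on replicate 2 and the most on replicate 1. The small number of arrays limits the precision. Xist was high on the female arrays only and the Y-linked Ddx3y and Eif2s3y on the male arrays only, and all 12 hepatocyte markers were well above background on all 8 arrays. The Bcl6 probe was not lower in the deficient groups: its level was between 2.91 and 3.97 in wild-type males, 4.01 and 4.49 in deficient males, 0.86 and 2.95 in wild-type females and 1.62 and 4.41 in deficient females. Whether this probe lies in the deleted part is not known here, so it does not check the labels, and every direction below is that of the arrays labelled knockout against those labelled wild type.

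Promoters of 4 members are shown because Irf1 passed the test in both sexes, while Isg15, Ifit3 and Rsad2 stand for the members that differed between arrays of the same group. Each is the 160 bases before the annotated start in RefSeq (GRCm38.p6), written 5′ to 3′ on the gene's strand. Capitals mark matches on either strand to TTCNNNGAA, the gamma-activated site, in Irf1 and to GAAANNGAAA, the interferon-stimulated response element, in the other genes.
Irf1 (chr11:53769854-53770013, plus strand): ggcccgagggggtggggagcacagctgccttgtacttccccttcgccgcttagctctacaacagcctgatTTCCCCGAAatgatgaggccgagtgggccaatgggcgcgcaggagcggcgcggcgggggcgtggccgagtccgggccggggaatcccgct
Isg15 (chr4:156200819-156200978, minus strand): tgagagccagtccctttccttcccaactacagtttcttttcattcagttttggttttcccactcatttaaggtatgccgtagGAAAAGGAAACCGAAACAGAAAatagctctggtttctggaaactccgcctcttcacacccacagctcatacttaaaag
Ifit3 (chr19:34583369-34583528, plus strand): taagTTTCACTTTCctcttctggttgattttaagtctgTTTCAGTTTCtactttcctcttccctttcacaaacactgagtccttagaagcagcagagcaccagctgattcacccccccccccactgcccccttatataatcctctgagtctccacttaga
Rsad2 (chr12:26456453-26456612, minus strand): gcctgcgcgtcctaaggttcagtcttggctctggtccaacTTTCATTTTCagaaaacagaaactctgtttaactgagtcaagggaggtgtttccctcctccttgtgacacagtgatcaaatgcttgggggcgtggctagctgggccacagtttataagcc

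Isg15 held 3 overlapping matches to GAAANNGAAA, Ifit3 held 2 and Rsad2 held 1. Over the 250 bases before the start, GAAANNGAAA was found on either strand in 13 of the 32 members with a promoter entry (40.6%), and in 936 of 27025 genes (3.46%). TTCNNNGAA was found in 8 of the 32 members (25%) and in 2197 genes (8.13%); Oas1a, Bst2 and Igtp held both. The members with GAAANNGAAA were Ifit1, Ifit3, Isg15, Oas1a, Oas3, Stat2, Rsad2, Bst2, Gbp2, Gbp3, Igtp, Irgm1 and Trim30a. A match is a run of letters and not a site shown to be bound. Oas2, Mx2, Usp18, Dhx58, Parp14 and Zbp1 had no promoter entry.

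Most interferon response genes did not pass the test between genotypes. Irf1 rose in knockout-labelled livers of both sexes, Oasl1 rose in females, and over both sexes Usp18 fell while Irf1 and Oasl1 rose. A gene passed when its Benjamini-Hochberg adjusted p from limma, over 26551 genes and unnamed transcripts, was below 0.05. In males 1 of 36 members passed, where 10.7% of all genes did. In females 2 of 36 passed, where 5.93% of all genes did, and over both sexes 3 of 36, where 19.8% did. At an unadjusted p below 0.05 there were 5 members in males, 8 in females and 9 over both sexes. Of all 26551 genes, 7228, 6612 and 9625 were below it, a larger share than of the members in each comparison. The members' share of calls was thus below that of all genes in males and over both sexes and near it in females.

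Levels are log2 signals minus the array's 75th percentile, so 0 is the 75th percentile of probes and 1 unit is a doubling; they are compared between arrays for the same gene, not between genes. The median knockout minus wild type difference over the 36 members was 0.06 in males, 0.22 in females and 0.14 over both sexes, beside -0.04, 0.00 and -0.02 over all genes. In males this median was -0.13 without wild-type replicate 1 and 0.28 without wild-type replicate 2, so its sign depended on which wild-type array was left out. Without those arrays the median over both sexes was 0.01 and 0.25, and without female wild-type replicate 1 it was 0.09 over both sexes and 0.13 in females. In females 27 of 36 members were higher in the knockout-labelled mean and 9 were lower. In 19 of the 35 members measured on all female arrays both knockout arrays lay above both wild-type arrays, and in 3 both lay below; the shares over all genes were 27.9% and 27.6%. In males the counts were 9 above and 6 below of 36, with 27.4% and 34.7% over all genes. Of the members, 18 were higher and 6 lower in both sexes; the 24 that kept their direction were 66.7% of the members, while 72.3% of all genes did.

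**Figure D1:**
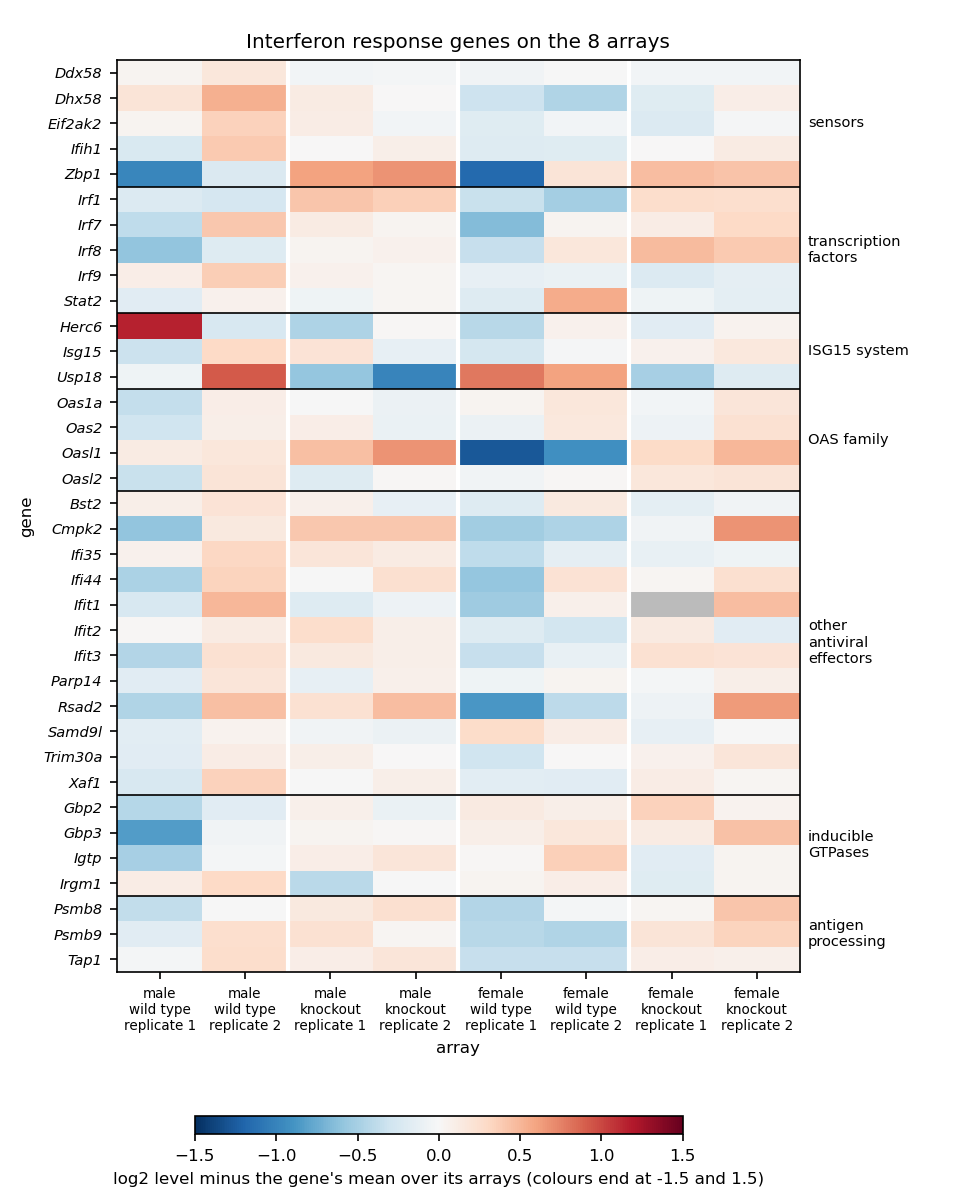
Heatmap of the 36 tested members (rows, grouped by role) on the 8 arrays (columns), coloured by the log2 level minus the gene's mean over its arrays; grey is the Ifit1 spot left out as an outlier. Oasl1, Irf1 and Usp18 separate the genotypes in 1 or both sexes, while many other rows are pale or blue on wild-type replicate 1 of each sex and red on male wild-type replicate 2.

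Of the interferons themselves, 10 of 18 ligand genes had a probe that was kept, all dim, with levels between -4.46 and -1.23. Ifnk, a type I interferon known from keratinocytes, was the 1 of these 10 that passed the test in females, where 5.93% of all genes did. Its levels were -3.56 and -3.73 in wild-type females, -2.98 and -3.05 in knockout-labelled females, -2.90 and -2.75 in wild-type males and -3.04 and -3.03 in knockout-labelled males. The wild-type female arrays were the lowest of the 8, and Ifnk was higher by 0.63 ± 0.11 (log2, SE) in knockout-labelled females (limma, adjusted p = 0.0308). Ifnk also passed between the wild-type sexes, higher in males by 0.82 ± 0.11 (limma, adjusted p = 0.039), where 0.975% of all genes passed. The same wild-type female arrays enter both comparisons. The other kept ligands were Ifna1, Ifna2, Ifna5, Ifna9, Ifna11, Ifna13, Ifna14, Ifnab and the type III interferon Ifnl3. Their genotype differences lay between -0.67 for Ifna13 and 0.24 for Ifna2 in males, and between -0.26 for Ifna1 and 0.29 for Ifna14 in females. Only 4 arrays for Ifna2, 5 for Ifna11 and 3 for Ifna13 were well above background.

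Receptor and kinase genes were well above background on all arrays, and 12 of 13 were tested. Stat3, the transcription factor of interleukin-6 signalling, rose over both sexes by 0.43 ± 0.09 (adjusted p = 0.0279). Its levels were 4.89 and 5.10 in wild-type males, 5.52 and 5.43 in knockout-labelled males, 5.09 and 5.10 in wild-type females and 5.60 and 5.34 in knockout-labelled females, with no overlap between genotypes in either sex. Other genes of this list differed over both sexes as follows. Ifnar1 differed by -0.03, Ifnar2 by 0.10, Ifngr1 by 0.07, Ifngr2 by -0.02 and Il10rb, the shared subunit of the type III receptor, by 0.13. Jak1 differed by -0.21, Jak2 by -0.09, Tyk2 by 0.01 and Socs1, a feedback inhibitor of the kinases, by -0.08. None of these passed. Socs3, another feedback inhibitor, differed by -0.58 ± 0.50, and its levels are given with the single arrays below.

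Among the sensors of foreign nucleic acid, none of the 5 members passed in either sex. Of all genes 10.7% passed in males and 5.93% in females, so a list this short holds few calls. Ddx58 and Ifih1, the helicases RIG-I and MDA5, detect viral RNA in the cytoplasm; Ddx58 lay between 2.28 and 2.51 on all 8 arrays and Ifih1 between 1.1 and 1.72. Eif2ak2, the RNA-activated kinase PKR, lay between 0.78 and 1.33. Zbp1, a sensor of left-handed nucleic acid that can start cell death, stood apart in its spread. Its levels were 0.29 and 1.06 in wild-type males, 1.87 and 1.95 in knockout-labelled males, 0.11 and 1.46 in wild-type females and 1.73 and 1.70 in knockout-labelled females. All 4 knockout-labelled arrays lay above all 4 wild-type arrays, but the wild-type females differed from each other by 1.35. Over both sexes Zbp1 was higher by 1.08 ± 0.32, a 2.12-fold difference that missed the threshold (adjusted p = 0.0649); its second, dimmer probe was higher by 1.45 in males and 1.1 in females.

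Dhx58, the helicase LGP2 that tunes the other 2 RNA helicases, differed in opposite directions. Its levels were 0.06 and 0.40 in wild-type males, -0.01 and -0.13 in knockout-labelled males, -0.44 and -0.59 in wild-type females and -0.32 and -0.04 in knockout-labelled females. The knockout-labelled arrays lay below the wild type in males and above it in females. The differences were -0.30 ± 0.16 in males (adjusted p = 0.296) and 0.34 ± 0.16 in females (adjusted p = 0.266), and neither these nor their contrast passed. The male difference was -0.47 without male wild-type replicate 1 and -0.13 without replicate 2, and the female difference was 0.20 without female knockout replicate 2. In the separate list of other sensing genes, 1 of 15 passed in males and over both sexes and 0 in females. The shares of all genes were 10.7% in males, 19.8% over both sexes and 5.93% in females. At an unadjusted p below 0.05, limma gave 1 of the 15 in females, beside 6612 of 26551 genes. The gene that passed was Trim25, the ubiquitin ligase that activates RIG-I, which rose by 0.51 ± 0.10 in males (adjusted p = 0.0321) and differed by 0.17 ± 0.10 in females (adjusted p = 0.366).

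The transcription factors held the most regular change of the set. Irf1, which drives genes of antigen presentation and the gamma response, had levels of 3.21 and 3.16 in wild-type males and 3.83 and 3.77 in knockout-labelled males. In females the levels were 3.08 and 2.90 in the wild type and 3.68 and 3.66 in the knockout-labelled arrays. All 4 knockout-labelled arrays lay above all 4 wild-type arrays, and no pair of replicates differed by more than 0.18. Irf1 rose by 0.61 ± 0.10 in males (1.53-fold, adjusted p = 0.0191) and by 0.68 ± 0.10 in females (1.6-fold, adjusted p = 0.0213), and by 0.65 ± 0.07 over both sexes (adjusted p = 0.00345). The call over both sexes held in all 8 fits that left out 1 array. In males it did not pass when a male array was left out, whichever of the 4 it was (adjusted p from 0.0619 to 0.11) and with the mean of both probes, where the difference was 0.39. In females it was lost without 6 of the 8 arrays, all but male wild-type replicate 1 and female wild-type replicate 1 (adjusted p from 0.0515 to 0.11). With dim probes kept in the fit neither sex alone passed (adjusted p = 0.0738 in males and 0.0839 in females). The dimmer second probe of Irf1 was higher by 0.17 in males and 0.90 in females.

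Irf8, a factor of the macrophage and dendritic cell lineages, was higher by 0.48 ± 0.15 over both sexes and missed the threshold (adjusted p = 0.07). Its levels were 0.04 and 0.44 in wild-type males, 0.67 and 0.69 in knockout-labelled males, 0.29 and 0.80 in wild-type females and 1.1 and 1.02 in knockout-labelled females. Irf7, the amplifier of type I interferon production, was between 4.07 and 5.12 over the arrays. Its wild-type replicates differed by 0.80 in males and 0.70 in females, more than its genotype difference of 0.07 in males and 0.50 in females. Irf9 and Stat2, parts of the complex that binds the response element, differed by -0.12 and -0.12 over both sexes and did not pass.

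**Figure D2:**
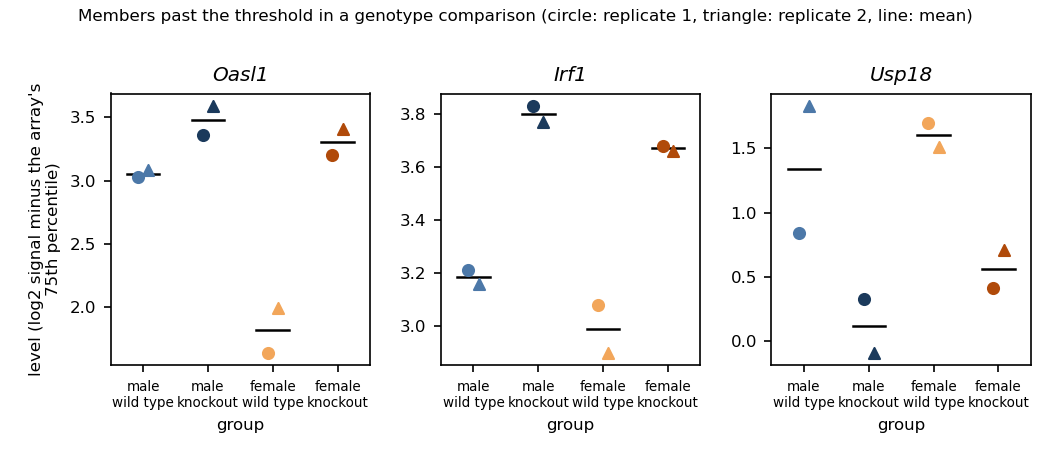
Levels of the 3 members that passed in a genotype comparison, as log2 signal minus the array's 75th percentile; circles are replicate 1, triangles replicate 2 and lines group means. Wild-type female arrays sit lowest for Oasl1 (1.64 and 1.99), the 4 knockout-labelled arrays sit highest for Irf1 and lowest for Usp18, and the male wild-type arrays of Usp18 lie 0.99 apart.

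Isg15 encodes a ubiquitin-like protein that is attached to other proteins during the response, Herc6 a ligase that attaches it in mice, and Usp18 the protease that removes it and also blocks the type I receptor. Usp18 had levels of 0.84 and 1.83 in wild-type males and 0.33 and -0.09 in knockout-labelled males. In females they were 1.70 and 1.51 in the wild type and 0.41 and 0.71 in the knockout-labelled arrays. The knockout-labelled arrays were the lower in both sexes, without overlap. The difference was -1.22 ± 0.34 in males (adjusted p = 0.0762) and -1.04 ± 0.34 in females (adjusted p = 0.13), and over both sexes Usp18 fell by 1.13 ± 0.24 on the log2 scale, 2.19-fold (adjusted p = 0.0244). The male difference was -1.71 without male wild-type replicate 1, where it passed (adjusted p = 0.0235), and -0.72 without replicate 2 (adjusted p = 0.185). The call over both sexes did not survive leaving out an array of the male knockout, female wild-type or female knockout group (adjusted p from 0.0546 to 0.0853) and held without either male wild-type array. It rests on 1 probe, and was also lost when dim probes were kept in the fit (adjusted p = 0.0636).

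Isg15, whose promoter is shown above, lay between 2.74 and 3.37 on all arrays and differed by 0.06 ± 0.23 in males and 0.26 ± 0.23 in females. Herc6 was dim, and 1 array carried its difference. Its levels were -1.71 and -3.11 in wild-type males, -3.33 and -2.85 in knockout-labelled males, -3.28 and -2.80 in wild-type females and -3.04 and -2.81 in knockout-labelled females. Only male wild-type replicate 1 stood apart, and the male difference of -0.68 ± 0.46 became 0.02 without it.

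The oligoadenylate synthetases make the messenger that activates RNase L, and their like genes include the catalytically inactive Oasl1, which in mice limits translation of Irf7. Oasl1 had levels of 1.64 and 1.99 in wild-type females and 3.20 and 3.41 in knockout-labelled females. In males they were 3.03 and 3.08 in the wild type and 3.36 and 3.59 in the knockout-labelled arrays. The wild-type female arrays were the only low ones, more than 1 log2 unit below the other 6. Oasl1 rose by 1.49 ± 0.16 in females, 2.82-fold (adjusted p = 0.00734), in all 8 fits that left out 1 array. In males it differed by 0.42 ± 0.16 (adjusted p = 0.159), and the difference between the sexes in this effect was -1.07 ± 0.23 and did not pass (adjusted p = 0.283). The second probe of Oasl1 was higher by 1.54 in females and 0.37 in males. With only the 4 female arrays in the fit the female call was lost (difference 1.49, adjusted p = 0.0591).

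The other family members moved little. Oas1a lay between 1.75 and 2.29, Oas2 between 0.51 and 1.03 and Oasl2 between -0.33 and 0.20 over the 8 arrays, with genotype differences between -0.04 and 0.20 in either sex. The Oas3 probe lay between -5.46 and -3.78 and gave no level to compare.

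No member of the other antiviral effectors passed, where 10.7% of all genes did in males and 5.93% in females. At those shares a list this short holds few calls. Of the 12 tested, 6 were higher in knockout-labelled males and 10 in knockout-labelled females, with median differences of 0.03 and 0.25. Of all genes 45.5% and 50.2% were higher, with medians of -0.04 and 0.00. Rsad2, the enzyme viperin that makes a chain-terminating nucleotide, and Cmpk2, the kinase that supplies its substrate, are neighbouring genes. Rsad2 had levels of -0.28 and 0.62 in wild-type males, 0.40 and 0.63 in knockout-labelled males, -0.71 and -0.23 in wild-type females and 0.09 and 0.81 in knockout-labelled females. Cmpk2 had levels of -0.71 and 0.03 in wild-type males, 0.29 and 0.29 in knockout-labelled males, -0.64 and -0.58 in wild-type females and -0.17 and 0.56 in knockout-labelled females. Male wild-type replicate 1 lay below replicate 2 by 0.90 in Rsad2 and by 0.74 in Cmpk2. Over both sexes Cmpk2 was higher by 0.72 ± 0.22 (adjusted p = 0.0693) and Rsad2 by 0.64 ± 0.26 (adjusted p = 0.142); the male difference of Rsad2, 0.35, became -0.10 without male wild-type replicate 1.

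Ifit1, Ifit2 and Ifit3, which bind viral RNA lacking the host's cap marks, differed by 0.21, 0.16 and 0.34 over both sexes; Ifit1 had 1 female knockout array. Its difference was -0.27 ± 0.32 in males, where the arrays overlapped, and 0.68 ± 0.39 in females, and the contrast of these, -0.95 ± 0.50, did not pass (adjusted p = 0.703). Ifi44 differed by 0.26, Ifi35 by 0.07, Xaf1 by 0.11, Trim30a by 0.17 and Parp14 by 0.01. Bst2, the protein tetherin that holds budding virus at the cell surface, differed by -0.12, and Samd9l by -0.13. Parp14 was the most even member, with group means within 0.05 of each other.

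The 4 interferon-inducible GTPases, which act in defence against intracellular microbes, did not pass either. Of all genes 10.7% passed in males and 5.93% in females, so a list of 4 holds few calls. In males Gbp3 differed by 0.48 ± 0.26, Igtp by 0.40 ± 0.20, Gbp2 by 0.29 ± 0.15 and Irgm1 by -0.41 ± 0.17. In females the differences were 0.15, -0.25, 0.09 and -0.13. Gbp3 in wild-type males was at -0.47 on replicate 1 and 0.32 on replicate 2, beside 0.41 and 0.38 in knockout-labelled males.

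By the brightest probe of each, the antigen-processing genes were higher in the knockout-labelled mean in both sexes without passing. Psmb8 and Psmb9 are catalytic subunits of the immunoproteasome, and Tap1 carries peptides into the endoplasmic reticulum. Psmb9 had levels of 2.36 and 2.32 in wild-type females and 2.97 and 3.11 in knockout-labelled females, with no overlap. In males its levels were 2.60 and 3.03 in the wild type and 3.0 and 2.81 in the knockout-labelled arrays, which overlapped. The differences were 0.70 ± 0.17 in females (adjusted p = 0.0681) and 0.09 ± 0.17 in males (adjusted p = 0.774). Tap1 differed by 0.43 in females and 0.02 in males, where its arrays overlapped, and Psmb8 by 0.46 and 0.38. The dimmer second probe of Tap1 differed by 0.65 in females and -0.14 in males, so its male direction depended on the probe.

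**Figure D3:**
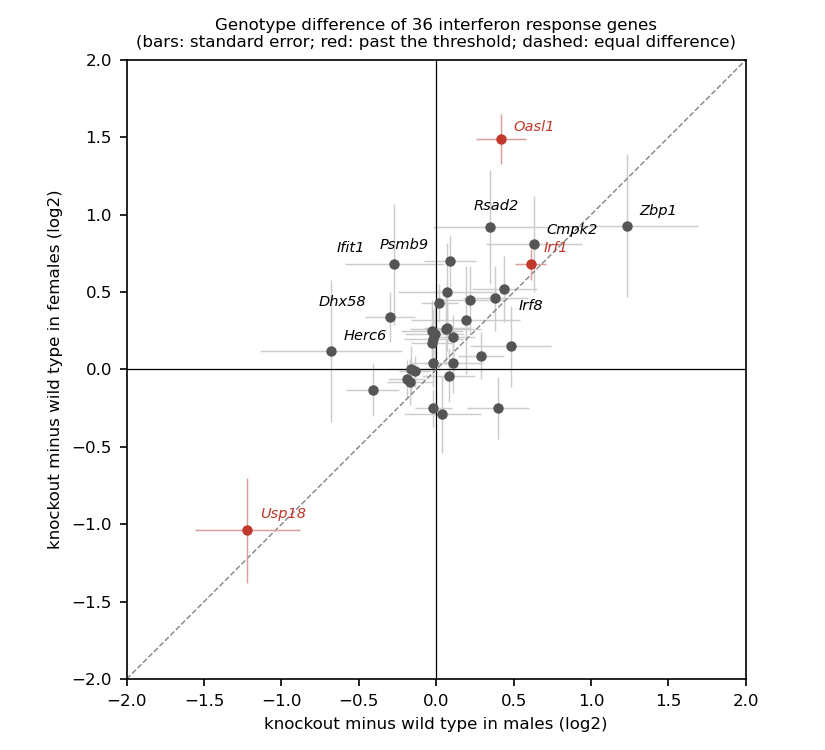
Knockout minus wild type difference (log2) of the 36 members in males (x axis) and females (y axis), with standard errors; red marks genes past the threshold in a genotype comparison. Oasl1 lies at 0.42 in males and 1.49 in females, Irf1 and Usp18 lie near the dashed line of equal difference, and most members lie within 0.5 of 0 on both axes.

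In wild-type males 34 of 36 members were higher on replicate 2 than on replicate 1, with a median gap of 0.37, while 50.6% of all genes were higher and their median gap was 0.00. The exceptions were Herc6 and Irf1. Of the 8 arrays, these 2 also had the most (replicate 1) and the fewest (replicate 2) spots well above background. They lay in slide columns 1 and 4. The part of spot number and slide position in this gap was not tested. The largest gaps upward were in Usp18 (0.99), Rsad2 (0.90), Ifi44 (0.82), Irf7 (0.80) and Gbp3 (0.79). In wild-type females 28 of 36 members were higher on replicate 2, with a median gap of 0.13, beside 46.7% of all genes. The knockout-labelled groups had 18 of 36 members higher on replicate 2 in males (median -0.01) and 26 of 35 in females (median 0.12), beside 47.5% and 50.5% of all genes.

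Male wild-type replicate 1 held the lowest level of 14 members and female wild-type replicate 1 that of 13, where 9.54% and 12% of all genes had their lowest level. Male wild-type replicate 2 held the highest level of 16 members and female knockout replicate 2 that of 9, where 17.4% and 8.66% of all genes had their highest. In males the low and the high array thus were both wild type; in females the low array was wild type and the high array knockout-labelled. The median deviation of the members from their own means was -0.21 on male wild-type replicate 1, 0.18 on male wild-type replicate 2, -0.24 on female wild-type replicate 1 and 0.01 on female wild-type replicate 2. The knockout-labelled arrays lay between 0.00 and 0.14.

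**Figure D4:**
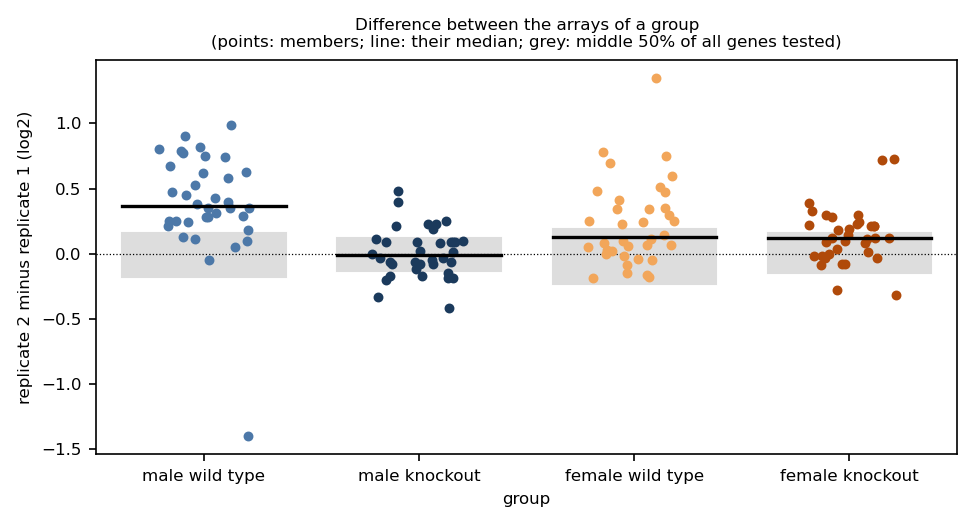
Replicate 2 minus replicate 1 (log2) of each tested member in each group; the line is the members' median and the grey box the middle 50% of all genes tested. The members' median lies at 0.37 in wild-type males, above the grey box, and between -0.01 and 0.13 in the other groups, inside it.

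In males the genotype difference exceeded both replicate gaps in 9 of 36 members (25%), where 49.6% of all genes did, and in females in 17 of 36 (47.2%), where 41.8% did. The members with GAAANNGAAA in the promoter were higher on male wild-type replicate 2 in 12 of 12 genes (median 0.46), and those without it in 17 of 19 (median 0.31). In wild-type females the counts were 11 of 12 (median 0.27) and 14 of 19 (median 0.07). None of the 12 tested members with the motif passed a genotype comparison; Irf1 and Oasl1 were among the 19 without it. Of all tested genes with the motif, 43 of 403 passed in males (10.7%) and 22 in females (5.46%), close to the shares of all genes.

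Socs3, outside the set, was also higher on replicate 2 of both wild-type groups, at 0.25 and 2.32 in males and 0.20 and 1.46 in females, against 0.42 to 0.53 on the knockout-labelled arrays. Other targets of type I interferon moved the same way in wild-type males, where 30 of 40 were higher on replicate 2 (median 0.24), as were 27 of 33 other gamma targets (median 0.16). Receptor and kinase genes were higher there in 11 of 12 (median 0.18) and other sensing genes in 12 of 15 (median 0.03), while ligands were higher in 5 of 10 (median -0.11). Macrophage and Kupffer cell markers were higher on that array in 9 of 16 (median 0.06), T and NK cell markers in 2 of 14 (median -0.35) and hepatocyte markers in 7 of 12 (median 0.01).

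Between the sexes, Oasl1 was the 1 member that passed, and only in the wild type. It was higher in wild-type males than in wild-type females by 1.24 ± 0.16, 2.37-fold (adjusted p = 0.036), where 0.975% of all genes passed; its levels are those given above, and the same wild-type female arrays enter its genotype comparison. This call held in 1 of the 8 fits that left out 1 array, that without female wild-type replicate 2, and was lost without any other array (adjusted p from 0.0618 to 0.105, difference from 1.07 to 1.27). It was also lost with dim probes kept (adjusted p = 0.108) and with only the wild-type arrays in the fit (adjusted p = 0.183). The second probe gave 1.34. In the knockout-labelled groups the sex difference of Oasl1 was 0.17 ± 0.16, and limma passed 0 of 36 members there, where 0.0753% of all genes passed. At an unadjusted p below 0.05 there were also 0 members, beside 1594 of 26551 genes.

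In the wild type the members' median male minus female difference was 0.14, beside 0.02 over all genes, and 25 of 36 were higher in males; without male wild-type replicate 2 the median was -0.08. Dhx58 was higher in wild-type males by 0.74 ± 0.16 (adjusted p = 0.107), Psmb9 by 0.48, Tap1 by 0.46 and Ifi35 by 0.45. Gbp2 was lower by 0.42 ± 0.15 and Gbp3 by 0.58 ± 0.26. None of these passed. In the knockout-labelled groups the median was -0.03. For the sex dependence of the genotype difference, limma passed 0 of 36 members, where 0.188% of all genes passed. At an unadjusted p below 0.05 there were 3 members (Oasl1, Dhx58 and Psmb9), about the share of all genes (2222 of 26551). The members' median was -0.17, and 0.03 without male wild-type replicate 2.

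Lists of further interferon targets, chosen with earlier results known, held calls at shares near or below those of all genes, except for gamma targets over both sexes. Of 40 tested type I targets, 4 passed in males (1 up and 3 down), 0 in females and 6 over both sexes. Of all genes 10.7%, 5.93% and 19.8% passed in these comparisons. At an unadjusted p below 0.05, limma gave 11 of the 40 in females, near the share of all genes (6612 of 26551). Ifi27l2b rose in males by 2.17 ± 0.45 (limma, adjusted p = 0.0349). Its male levels were 1.12 and 1.0 in the wild type and 2.89 and 3.58 in the knockout-labelled arrays. In females it differed by 0.80 ± 0.45 without passing, at 1.90 and 1.82 in the wild type and 1.97 and 3.34 in the knockout-labelled arrays. Ms4a4c and Sp110 fell in males by 0.65 ± 0.12 and 0.57 ± 0.10 (limma, adjusted p = 0.0235 and 0.0232). In females they differed by -0.40 ± 0.12 and -0.34 ± 0.10 without passing (limma, adjusted p = 0.105 and 0.117). The genotypes did not overlap in either sex, and both genes passed over both sexes (limma, adjusted p = 0.00996 and 0.0104). Ifit1bl2, a relative of Ifit1, rose over both sexes by 0.64 ± 0.11 (adjusted p = 0.0132).

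Of 33 tested gamma targets, 4 passed in males and 1 in females, all upward, and 9 over both sexes, 7 up and 2 down, beside 10.7%, 5.93% and 19.8% of all genes. Ciita, the switch for MHC class II genes, had levels of -0.72 and -1.02 in wild-type males, 0.45 and 0.33 in knockout-labelled males, -0.62 and -0.50 in wild-type females and 0.47 and 0.34 in knockout-labelled females. The genotypes did not overlap in either sex. It rose by 1.26 ± 0.14 in males (adjusted p = 0.00455) and 0.97 ± 0.14 in females (adjusted p = 0.0166). The guanylate-binding proteins Gbp9 and Gbp10 rose in males by 1.23 ± 0.22 and 0.61 ± 0.11 (adjusted p = 0.0212 and 0.0204), and in females differed by 0.71 and 0.44 without passing.

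Some markers of immune and vessel cells were higher in the knockout-labelled arrays, and in whole liver more cells of a type and more RNA per cell cannot be told apart. The counts below stand beside 10.7% of all genes past the threshold in males and 5.93% in females. Of 9 tested B and plasma cell markers, 4 rose in males and 2 in females, above those shares. Summed levels here are the log2 of the markers' added unlogged levels, so the brightest markers weigh most. For B and plasma cells they were 3.60 to 3.67 in wild-type and 4.93 to 5.07 in knockout-labelled males. In females they were 3.77 to 3.81 and 5.06 to 5.07. Of 16 macrophage and Kupffer cell markers 2 rose in males and 1 in females, near the shares of all genes, with summed levels of 7.27 to 7.36 and 7.60 to 7.79 in males and 7.62 to 7.63 and 7.54 to 7.76 in females. Of 14 T and NK cell markers 2 rose in males, near the share of all genes, and 0 in females. At an unadjusted p below 0.05, limma gave 2 in females, beside 6612 of 26551 genes. Summed levels of this list in wild-type and knockout-labelled arrays were 5.15 to 5.29 and 4.75 to 5.20 in males. In females they were 4.37 to 5.10 and 4.33 to 4.50. Counted singly, 12 of 14 were higher in the knockout-labelled mean in males (median difference 0.49) and 10 of 14 in females (median 0.07). Of all genes 45.5% and 50.2% were higher.

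Of 9 dendritic cell markers, which include the member Bst2, none passed in either sex alone. At an unadjusted p below 0.05, limma gave 2 in each sex, beside 7228 of 26551 genes in males and 6612 in females. Over both sexes 2 of 9 passed, Flt3 and Itgax, both upward, near the 19.8% of all genes. The summed levels of the 9 markers were 8.20 to 8.30 on the male and 7.87 to 8.11 on the female arrays. Of 6 tested neutrophil markers none passed (limma, 0 in males and 1 in females at an unadjusted p below 0.05), and their summed levels were 7.58 to 7.66 in males and 7.59 to 7.78 in females. Of 10 endothelial markers 3 rose in males and 1 in females, with summed levels of 6.42 to 6.48 and 6.94 to 7.03 in males and 6.69 to 6.79 and 6.91 to 6.94 in females. All tested markers were well above background on at least 1 array. The part of these cells in the differences of Irf1, Oasl1, Usp18, Irf8 and Ciita was not tested.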

How the data were processed

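Members and gene lists were chosen with earlier results of these data known. Each sample's file holds spot intensities from Agilent Feature Extraction (version 11.5.1.1 per the file headers, 9.1.3.1 per the submitters' processing notes); the deposited intensity used was the processed signal, background-subtracted by that software per the file headers. The authors' deposited table holds log2 values; they equalled the log2 processed signal minus 1 constant per array, so its scale and direction are known, and it served as an alternative. From the intensities, log2 minus each array's 75th percentile over 56605 probes was computed, after control and outlier spots were left out and spots of a probe averaged.

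Probes were named through RefSeq accessions (32994 of 56605 named by 1 symbol, 23611 by none); unnamed probes were grouped by accession. A probe was kept if it was well above background throughout at least 1 group, and the brightest kept probe stood for its gene. limma (3.58.1, R 4.3.3) fitted 4 group means on all 8 arrays, with 4 residual degrees of freedom and a median standard error of 0.162 between 2 groups. It was tested on simulated data for the male comparison over 26551 genes: 56 of 100 genes changed by 1 log2 unit and 98 of 100 changed by 3 were recovered, with 8 false calls. Replicate numbers did not pair the samples. Members named with all their values are those past the threshold, the 8 with the largest range of group means and the 4 with the largest replicate gap; of the other lists, every ligand gene and receptor or kinase gene kept, except 1 that is not reported here, and up to 3 genes per comparison past the threshold. Alternatives were other background corrections, normalizations, filters, probe rules, variance settings, a replicate block, the deposited table and leaving out each array.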

Additional observations from a re-analysis of the deposited data

Results flagged for a closer look

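Dhx58 moved in opposite directions in the sexes: both knockout-labelled arrays lay below the wild type in males and above it in females. The difference between these effects was -0.64 ± 0.23 on the log2 scale, with an unadjusted p = 0.033 and an adjusted p = 0.538 from limma, so the test of the difference did not pass. No group had the 4 samples needed to look for a single sample far from the others.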

How the results depend on the processing

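Counts of members past the threshold kept within 1.5 times their value in 71 of 100 alternatives. These include counts of 0 that stayed 0, for the sexes within the knockout and for the sex dependence. A count could also be kept while the gene behind it changed. Medians moved by less than the spread between arrays in 96 of 100. That spread, 0.173, is larger than the medians of 0.06 in males and 0.14 over both sexes, so it does not show that those kept their sign. The shared movement of replicates kept its size in 24 of 24. With normexp background correction 2 members passed in males, 4 in females and 6 over both sexes. With dim probes kept 0 passed in males, 1 in females and 0 between wild-type sexes, and when probes of a gene were averaged 0 passed in males. With a trended, robust prior 2 passed in males and 6 over both sexes. With only the 2 groups compared 0 passed in females and 0 between wild-type sexes; that fit has fewer arrays. With the replicate number as a block 7 members passed over both sexes, adding Cmpk2, Psmb8, Rsad2 and Zbp1; the numbers did not pair the samples, since deviations of same-numbered arrays correlated at -0.002 to 0.102. Leaving out 1 array gave 0 to 1 members in males, 1 to 2 in females, 2 to 5 over both sexes and 0 to 1 between wild-type sexes. The median difference then ranged from -0.13 to 0.28 in males, from -0.08 to 0.27 between wild-type sexes and from -0.32 to 0.03 for the sex dependence. Differences that changed sign when 1 array was left out were those of Rsad2 in males (-0.10 to 0.80), Dhx58 over both sexes (-0.07 to 0.10) and Herc6 in males (-1.38 to 0.02), in females (-0.12 to 0.36) and over both sexes (-0.63 to 0.07). Of 467 refits of single members 414 kept direction and side of the threshold, 31 no longer passed and 14 newly passed (Usp18 in males, and Zbp1, Rsad2, Cmpk2 and Irf8 over both sexes). The cause was not tested. Arrays give no counts; 2 per group limit what can be told apart, and the dim Oas3 probe gives no level.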
